A study of Mus musculus with 18 samples.

Results

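Kidney grafts harvested 14 days after cold storage-associated transplantation (the graft was stored in the cold between donor and recipient) were compared with kidneys of sham-operated mice of the same day. Each group held 3 libraries of total RNA from renal cortex, all labelled wild type (WT), out of 18 libraries of sham and transplant kidney at day 1, day 7 and day 14. The transplant labels give the harvest at 14 days, while the day of the sham libraries rests on their titles. The labels also name a rat proximal tubular cell line for every library and a protocol of STZ-induced diabetes with ischemia-reperfusion, which the titles and treatment fields do not mention, and the groups follow the titles. Strain, sex, age, the donor and recipient pairing and the time in the cold are not stated in the labels used here. The comparison covers the 15278 genes with an FPKM of at least 1 in at least 3 of the 18 libraries, out of 54831 genes in the table. At the edge of this rule, Rasal3 and Disp1 had a third-highest value of 1.000455 and 1.000503 FPKM and were kept, while Crybg2 at 0.999863 and Bmp3 at 0.998393 were not.

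FPKM (fragments per kilobase of gene, scaled to library total) sets a gene's level against its length and against the library total, so levels below are per length. Sequencing depth is unknown. All fold changes were taken on log2(FPKM + 1) values. This makes changes of genes with low FPKM look smaller than they are. A ± after a log2 value gives its standard error. Adjusted p-values are from limma with Benjamini-Hochberg adjustment over all 15278 genes, and a gene rose or fell where that value was below 0.05. Values per library are given in the order of replicates 1, 2 and 3, with n = 3 per group throughout. Nothing in the labels states that the replicates were separate mice, so the p-values reflect only how far these libraries scatter, possibly for technical reasons. Transplant libraries alone can carry a gene with little RNA in sham past the filter, so shares of a list are shares of its tested genes.

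The proximal tubule reabsorbs most of the filtered glucose, phosphate, amino acids and bicarbonate and secretes organic anions, and it runs on the oxidation of fatty acids. It is the segment most easily injured when blood flow is interrupted. Surviving tubule cells lose their mature transcripts, switch on injury genes such as Havcr1 and Sox9, and either redifferentiate or stay in a state marked by Vcam1 and Ccl2, next to which leukocytes and fibroblasts gather. An allograft can in addition be attacked by recipient lymphocytes, whose interferon gamma raises class I and class II molecules on graft cells. Sex hormones set a large programme of proximal tubule genes in mice, of which Kap is the most abundant.

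The libraries carried kidney markers of each nephron segment. Sham libraries held Slc34a1, the phosphate transporter of the proximal tubule, at 1343 to 1500 FPKM, Umod of the thick ascending limb at 552 to 718, Slc12a3 of the distal convoluted tubule at 305 to 370, Aqp2 of principal cells at 17.5 to 19.8, and Nphs1 of podocytes at 4.74 to 5.24. The adrenal genes Cyp11a1 and Cyp11b1 and the fat gene Adipoq were listed at 0 in all 6 libraries. In a principal component analysis of the 6 libraries, component 1 (54.2% of variance) separated the 3 grafts from the 3 sham kidneys. Component 2 (15.8%) set transplant replicate 2 apart from transplant replicate 3. Correlations of log2(FPKM + 1) were 0.960 to 0.966 among sham libraries, 0.933 to 0.946 among transplant libraries and 0.901 to 0.908 between the groups. Transplant replicate 1 had 23088 genes above 0, against 18666 to 19392 in the other libraries of day 14. Among the transplant libraries, 3650 genes were above 0 only in replicate 1, at a median of 0.110 FPKM, and 200 of them were tested.

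At day 14, 3413 genes (22.3%) rose and 782 (5.12%) fell in transplant kidney. The counts of each list below are to be read against these shares, or against 11.4% and 11.2% after median-of-ratios scaling. The fold change was at least 1 on the log2 scale for 1439 of those that rose, and -1 or below for 302 of those that fell. The balance depended on scaling. Over all tested genes the median fold change, as log2, was 0.27 in FPKM and 0.02 after median-of-ratios scaling, under which 1746 genes (11.4%) rose and 1707 (11.2%) fell. Genes that rose therefore made up 81.4% of the calls in FPKM and 50.6% after rescaling. All 782 falls were also called after rescaling, as were 1746 of the rises. The 3 transplant values lay above the 3 sham values for 4815 genes (31.5%) and below them for 1119 (7.32%). Of the 12713 protein-coding genes tested, 3246 rose and 667 fell, while of 296 long intergenic RNAs 24 rose and 22 fell.

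**Figure D1:**
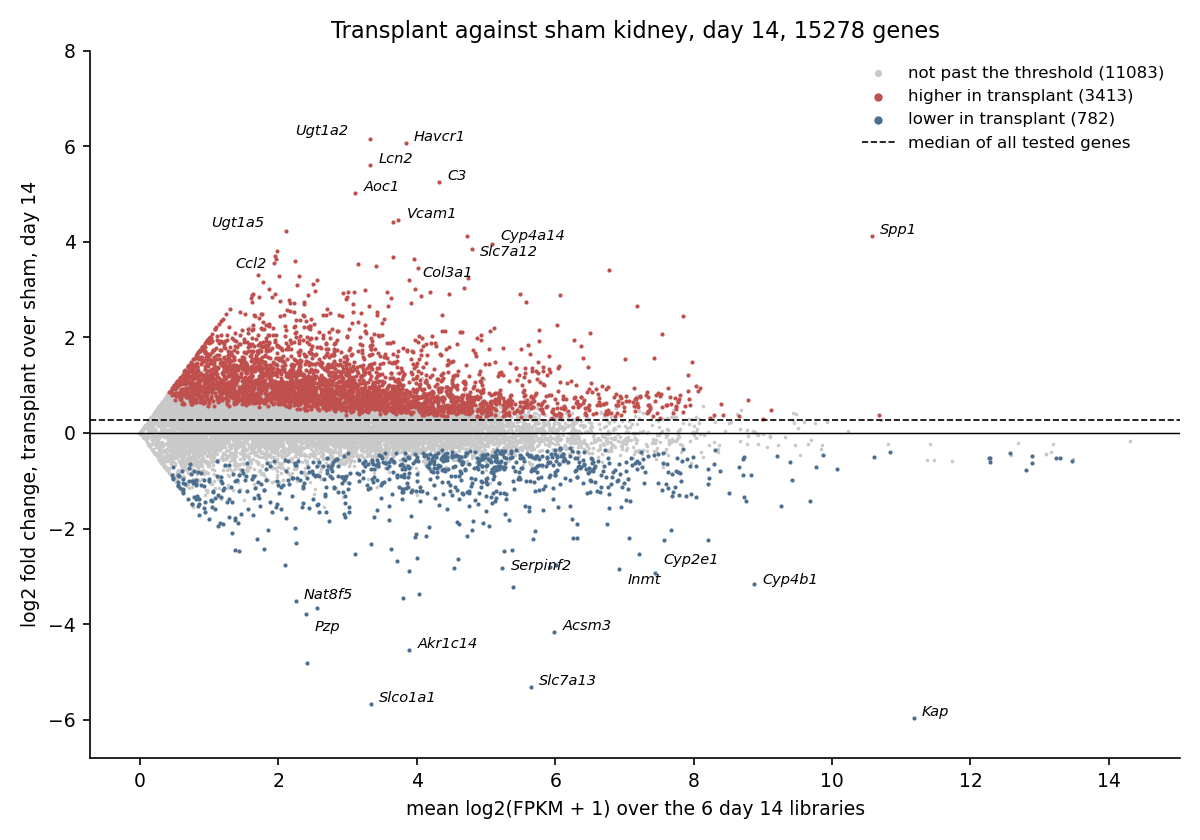
Log2 fold change of transplant over sham kidney at day 14 against mean log2(FPKM + 1) over the 6 libraries, 1 point per tested gene, coloured by the limma call; the dashed line is the median of all tested genes, 0.27. More points lie above 0 (3413 rises) than below it (782 falls), and Kap, among the most abundant transcripts in sham, has a fold change of -5.98.

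Tubular injury genes stood far above sham 14 days after transplantation. Of 30 genes tested, 29 rose, with a median log2 fold change of 2.27, and the same number rose after median-of-ratios scaling and with any library left out. The remaining member was Itgb6, a subunit of the integrin that activates TGF-beta, at 44.2, 39.9 and 31.9 FPKM in sham and 51.5, 37.3 and 41.6 in transplant. Havcr1 (chr11:46735080-46779578, GRCm38) encodes KIM-1, the receptor by which injured proximal tubule cells take up dying cells. It was at 0.828, 0.58 and 0.861 FPKM in sham and 137, 91.7 and 124 in transplant. The groups did not overlap, and the log2 fold change was 6.06 ± 0.20 (limma adjusted p = 8.75e-13). Lcn2, the gene of the siderophore-binding protein NGAL, was listed at 0, 1.15 and 0.38 FPKM in sham and at 121, 49.5 and 54.9 in transplant, a rise of 5.61 ± 0.31 (limma adjusted p = 6.74e-10). Replicate 1 was the highest of the transplant libraries for both genes. The list also held 2 abundant transcripts that rose. Spp1, osteopontin, went from 331, 366 and 396 FPKM to 7514, 4828 and 7083, and Clu, the chaperone clusterin, from 87.1, 101 and 105 to 716, 472 and 458. Both groups were apart for each gene (limma adjusted p = 4.33e-12 and 3.27e-08).

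Genes named for incomplete repair rose as well. Vcam1, the adhesion molecule of failed-repair tubule cells and of activated endothelium, was at 2.24, 1.95 and 1.41 FPKM in sham and 74.4, 71.4 and 42.7 in transplant. Every graft lay above every sham library (4.45 ± 0.24, limma adjusted p = 4.62e-10). Cd44, a hyaluronan receptor, rose by 3.59 ± 0.26 from under 0.5 FPKM to 21, 14.3 and 12.3. Sox9, the transcription factor of regenerating tubule cells, was at 0.0582, 0.0742 and 0 FPKM in sham and 5.4, 2.61 and 1.49 in transplant (limma adjusted p = 0.000635). Dcdc2a, a doublecortin-domain gene, rose by 2.50 ± 0.23, and Cp, the ferroxidase ceruloplasmin, by 3.24 ± 0.21. Krt20, a keratin of severely injured tubules, was at 6.65, 4.53 and 2.39 FPKM in transplant against at most 0.358 in sham (2.21 ± 0.36, limma adjusted p = 0.000231). In bulk tissue, more cells of a type and more RNA per cell cannot be told apart, and the same holds for falls.

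**Figure D2:**
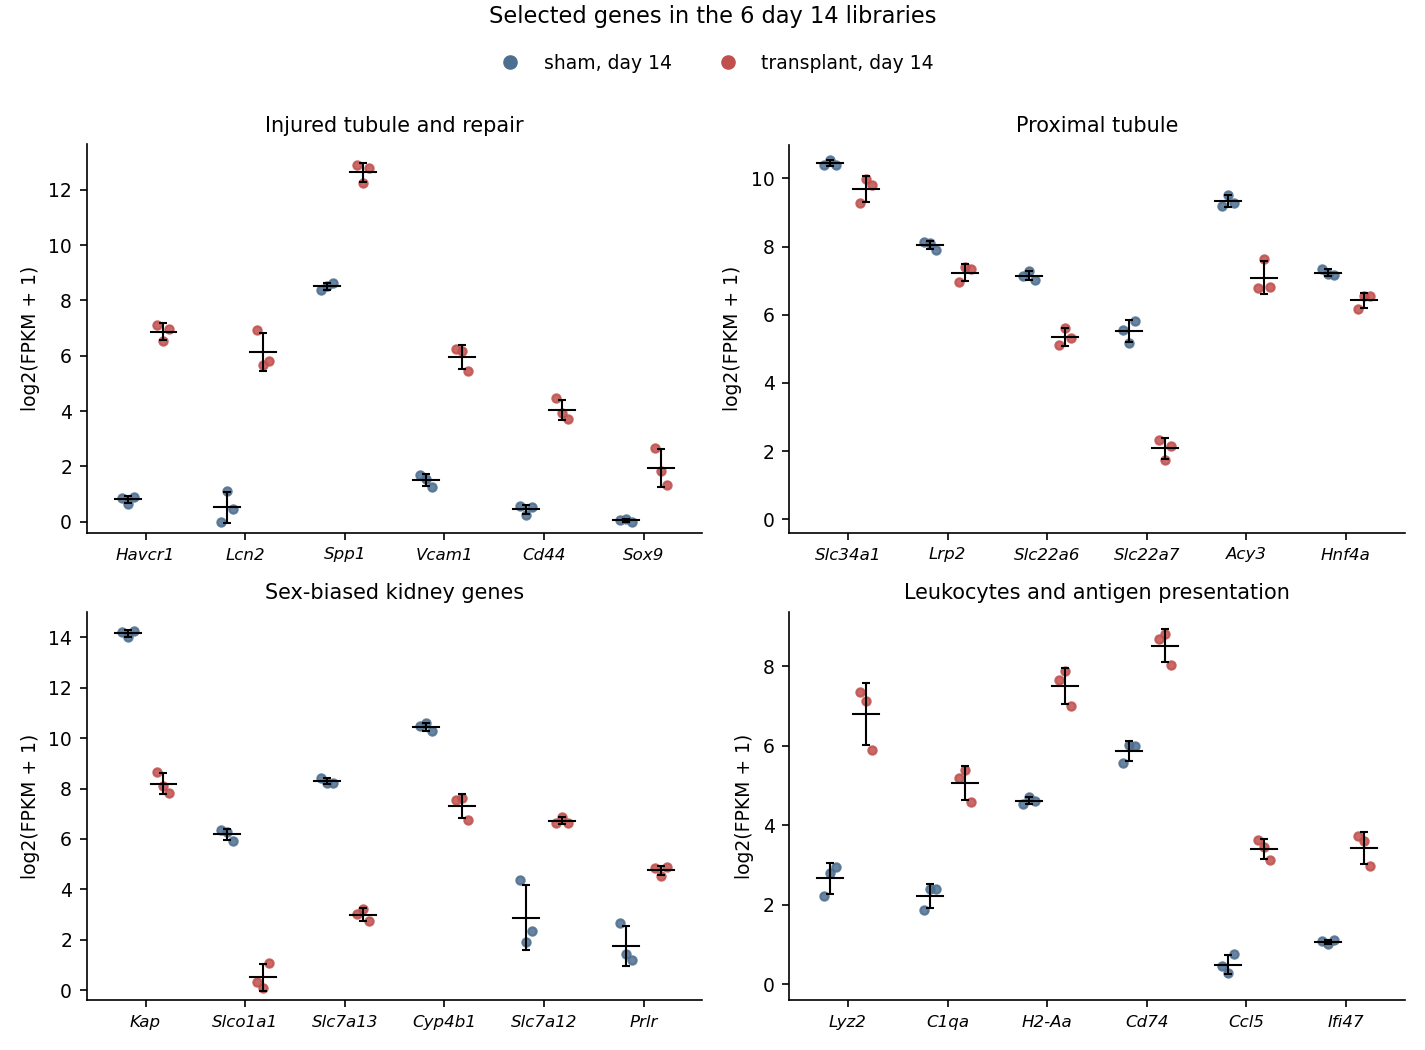
Log2(FPKM + 1) of 24 genes in the 3 sham (blue) and 3 transplant (red) libraries of day 14; dots are libraries, the line is the mean and the bar the SD of the 3 values. The groups do not overlap for any of the 24 genes, with Havcr1, Spp1 and Lyz2 higher and Kap, Slco1a1 and Slc22a7 lower in transplant. The genes shown were chosen with earlier results known. The proximal tubule panel leaves out Slc5a2 and Slc22a8, which overlap, and Slc13a1, which rose. Of all tested genes, 31.5% lay apart above sham and 7.32% below.

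The largest fall was in Kap (chr6:133849851-133853762, GRCm38), the kidney androgen-regulated protein of the mouse proximal tubule. It was at 19007, 16558 and 19732 FPKM in sham and 398, 272 and 228 in transplant. The ranges were far apart, and the log2 fold change was -5.98 ± 0.21 (limma adjusted p = 1.52e-12). Slco1a1, an organic anion transporter, fell from 79.8, 75.9 and 59.9 FPKM to 0.26, 0.0578 and 1.13, and Slc7a13, an amino acid transporter of the last proximal segment, from 345, 301 and 298 to 7.03, 8.41 and 5.62. These falls were -5.68 ± 0.22 and -5.31 ± 0.16 (limma adjusted p = 4.33e-12 and 2.1e-13).

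These 3 genes belong to a list of 12 sex-biased mouse kidney genes. All 8 male-biased members (Kap, Slco1a1, Slc7a13, Cyp4b1, Cyp2e1, Cyp2j13, Cyp7b1 and Slc22a30) fell, with a median of -3.30, and the counts were the same after median-of-ratios scaling. Cyp4b1, a cytochrome P450, fell from 1409, 1552 and 1254 FPKM to 184, 194 and 106 (-3.16 ± 0.22). Of the 4 female-biased members, 3 rose. Slc7a12, an amino acid transporter, was at 19.5, 2.77 and 4.11 FPKM in sham and 98.1, 117 and 98.9 in transplant (3.84 ± 0.51, limma adjusted p = 2.6e-05), with sham replicate 1 above the other sham libraries but below every graft. Prlr, the prolactin receptor, went from 5.33, 1.71 and 1.27 FPKM to 27.6, 22.3 and 28.3 (2.99 ± 0.36), and Cyp4a14, an omega-hydroxylase of fatty acids, from 4.94, 8.16 and 10.9 to 156, 129 and 116 (3.95 ± 0.50). Akr1c18, which inactivates progesterone, fell by 2.46 ± 0.51 on the log2 scale. The division of the list into male-biased and female-biased genes was recorded after the values were seen.

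Of 4 sex-linked genes tested, none rose or fell. Xist, the transcript of the inactive X chromosome, was listed at 0 in the 3 sham libraries and at 0.0376, 0.0563 and 0.00392 FPKM in transplant. Every graft thus lay above sham for Xist, but only at trace values. The Y-linked gene Ddx3y was at 17.5, 12.4 and 17.2 FPKM in sham and 23.2, 17.2 and 18.3 in transplant, with overlapping ranges.

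Transporters of the proximal tubule fell in part. Of 43 tested, 22 fell and 3 rose, with a median of -0.45 against 0.27 for all genes, and 24 fell and 1 rose after median-of-ratios scaling. Slco1a1, Slc7a13, Slc22a30 and Slc7a12 are in this list and in the sex-biased list, so the counts of the lists are not separate. Slc22a7 and Slc22a6 are the organic anion transporters OAT2 and OAT1. Slc22a7 went from 46.2, 35.3 and 55.8 FPKM to 4.04, 2.36 and 3.45, and Slc22a6 from 139, 155 and 128 to 33.5, 47.9 and 39 (-3.45 ± 0.33 and -1.80 ± 0.21). Slc34a1 fell from 1347, 1500 and 1343 FPKM to 617, 1010 and 901, with transplant replicate 1 lowest (-0.76 ± 0.18, limma adjusted p = 0.00542). Slc5a8, the lactate and monocarboxylate transporter, fell by 1.43 ± 0.15 on the log2 scale. By contrast Slc5a2, the glucose transporter SGLT2, was at 169, 203 and 167 FPKM in sham and 108, 185 and 206 in transplant, and the groups overlapped (limma adjusted p = 0.636). Slc13a1, the sulfate transporter, was higher in every graft, at 314, 206 and 317 FPKM against 140, 148 and 142 (0.93 ± 0.29, limma adjusted p = 0.0236). Under median-of-ratios scaling its adjusted p from limma was 0.167, and without a library it lay between 0.0513 and 0.0806 except without transplant replicate 2.

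Among 20 genes of endocytosis and the brush border, 9 fell and the other 11 did not pass the test, and without transplant replicate 1 the count was 4. Lrp2 encodes megalin, the receptor that takes filtered proteins back from the urine. It went from 278, 273 and 239 FPKM to 123, 167 and 162 (-0.81 ± 0.22, limma adjusted p = 0.0118, and 0.0586 without transplant replicate 1). Its partner Cubn was at 76.2, 73.7 and 69.5 FPKM in sham and 50.4, 58.8 and 63.9 in transplant, apart but not past the threshold (limma adjusted p = 0.396). Ggt1, which starts the breakdown of glutathione, fell by 1.27 ± 0.18 on the log2 scale. Mep1b, a subunit of the protease meprin, fell by 1.84 ± 0.39.

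Of 36 metabolic genes of the proximal tubule 24 fell, with a median of -0.81, while Kynu and Cyp4a14 rose. This list, too, shares members with the sex-biased list, among them Kap, Cyp4b1 and Cyp4a14. Acy3, an aminoacylase that deacetylates mercapturic acids, fell from 581, 732 and 620 FPKM to 110, 199 and 111 (-2.25 ± 0.19, limma adjusted p = 2.07e-07). Akr1c14, a hydroxysteroid dehydrogenase, fell from 83, 47.1 and 90.4 FPKM to 1.96, 2.03 and 2.2 (-4.55 ± 0.32). Kynu, the kynureninase of tryptophan breakdown, was at 4.41, 1.81 and 1.37 FPKM in sham and 7.92, 12 and 11.8 in transplant (1.79 ± 0.32).

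Of 15 transcription factors of the proximal tubule tested, Hnf4a and Nr1h4 fell and Tfcp2l1, Pax2 and Pax8 rose, and none of these 3 rises was called after median-of-ratios scaling, under which 4 of the 15 fell. Hnf4a, which drives the mature proximal tubule programme, fell from 163, 145 and 142 FPKM to 70.8, 92.3 and 92.7 (-0.82 ± 0.23, limma adjusted p = 0.0123, and 0.0579 without transplant replicate 1). Nr1h4, the bile acid receptor FXR, went from 53.2, 36 and 44.3 FPKM to 18.1, 25.3 and 16.1 (-1.13 ± 0.22).

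Genes of glucose production and fatty acid oxidation were lower in part. Of 9 gluconeogenesis genes 5 fell, and 2 did without transplant replicate 1, without sham replicate 1 or without sham replicate 2. Pck1, its rate-limiting enzyme, went from 489, 379 and 388 FPKM to 133, 255 and 131 (-1.33 ± 0.34, limma adjusted p = 0.00758). Of 37 genes of fatty acid oxidation 14 fell, against 5.12% of all genes, and 1 rose, and 24 fell after median-of-ratios scaling. Acadm, the medium-chain acyl-CoA dehydrogenase, fell from 274, 253 and 326 FPKM to 117, 133 and 118 (-1.20 ± 0.14). Cd36, the fatty acid translocase, fell from 161, 165 and 163 FPKM to 42.5, 41.6 and 23 (-2.21 ± 0.22), and Acsm3, a medium-chain acyl-CoA synthetase, from 255, 236 and 322 to 15.1, 14.1 and 12.6 (-4.18 ± 0.22). Ppara, the nuclear receptor of fatty acid oxidation, overlapped between groups at 18.2, 15.4 and 14.6 FPKM in sham and 11, 13.3 and 15.6 in transplant.

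Nuclear genes of oxidative phosphorylation depended on scaling. Ndufc2 and Cycs fell among 59 tested, with a list median of -0.08, and 23 fell after median-of-ratios scaling. Without transplant replicate 2, 5 fell. The fall of Ndufc2 was not called without sham replicate 1, sham replicate 2, transplant replicate 1 or transplant replicate 3 (limma adjusted p = 0.0809 to 0.167), nor after quantile normalization (0.0532). Of the 13 protein genes of the mitochondrial chromosome, 7 fell in FPKM, 13 after median-of-ratios scaling and 1 after quantile normalization, and 3 or 4 without any 1 of the sham libraries and 3 without transplant replicate 2. The gene mt-Nd2, a subunit of complex I, was at 8998, 9282 and 9916 FPKM in sham and 6012, 4518 and 5984 in transplant. The mitochondrial chromosome took 30.3%, 30.2% and 31.5% of the FPKM sum in sham and 27.7%, 23.02% and 26.5% in transplant.

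**Figure D3:**
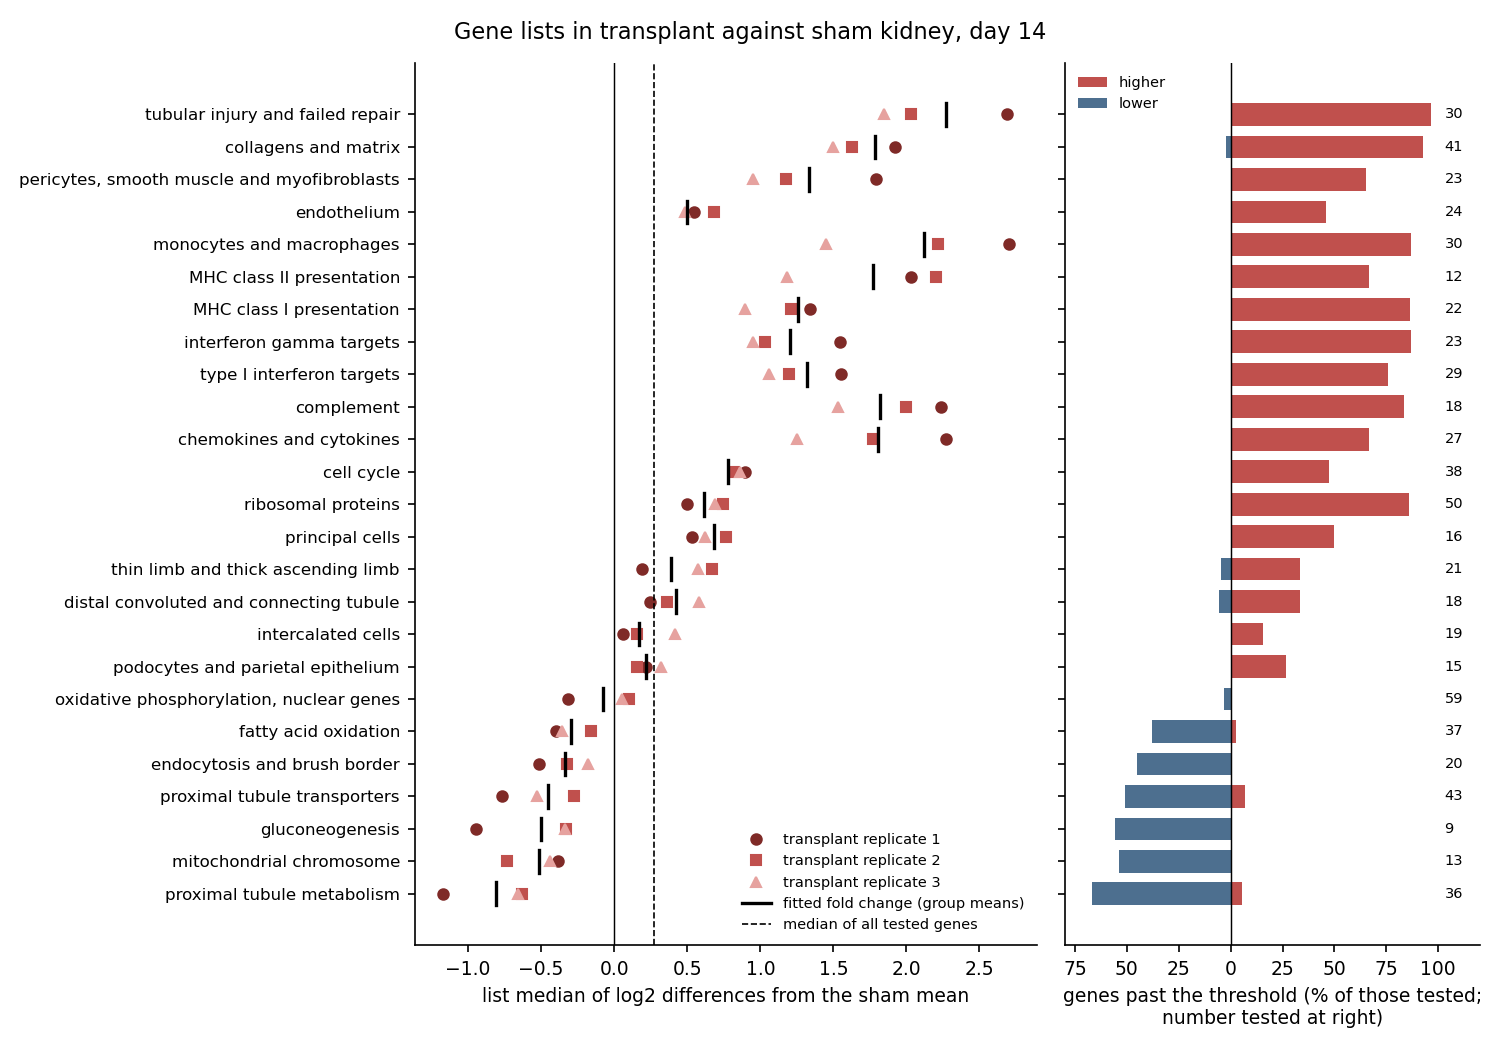
Left, the median log2 difference of 25 gene lists from the sham mean, for each transplant library (symbols) and for the fitted fold change (bar), with the median of all tested genes dashed at 0.27. Right, the share of tested genes that rose (red) or fell (blue), with the number tested beside it. The injury, matrix and macrophage lists lie above the dashed line and proximal tubule lists below it, and replicate 3 is lowest for the macrophage list.

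The highest fold change of all tested genes was in Ugt1a2, a UDP-glucuronosyltransferase that conjugates bilirubin, steroids and drugs for excretion. It was listed at 0, 0.693 and 0 FPKM in sham and at 65.7, 96.1 and 91.3 in transplant (6.14 ± 0.34, limma adjusted p = 8.42e-10). Ugt1a10 and Ugt1a5 rose by 4.41 ± 0.61 and 4.23 ± 0.55. Genes of the Ugt1a locus share their last exons, so their reads can be assigned to one another and the level of each is uncertain. Aoc1, the diamine oxidase that breaks down histamine and putrescine, was at 0.34, 0 and 1.57 FPKM in sham and 57.4, 49.8 and 39.2 in transplant (5.03 ± 0.42, limma adjusted p = 2.49e-07). Among 24 antioxidant and NRF2 target genes, 5 rose, near the 22.3% of all genes, and 5 fell, against 5.12% of all genes. After median-of-ratios scaling 4 rose and 10 fell, and in FPKM 3 fell without sham replicate 1 or transplant replicate 1. Gsta4, a glutathione S-transferase for lipid aldehydes, went from 14.4, 12.8 and 17.5 FPKM to 40.2, 79 and 102 (2.14 ± 0.29), while Me1, the malic enzyme that makes NADPH, fell from 160, 159 and 192 to 62.3, 69.1 and 77.4 (-1.28 ± 0.12). Nqo1, a classical NRF2 target, overlapped between the groups at 30, 21.8 and 24.5 FPKM in sham and 36.4, 35.6 and 26.5 in transplant.

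In the thin and thick limbs 7 of 21 genes rose and Egf fell, and in the distal convoluted and connecting tubule 6 of 18 rose and Pvalb fell. The falls are near the 5.12% of all tested genes, of which 22.3% rose. After median-of-ratios scaling 4 rose and 1 fell in the limbs and 3 rose and 3 fell in the distal convoluted and connecting tubule. Without transplant replicate 3 3 of the latter rose. Egf, the growth factor precursor of the distal tubule, was at 332, 300.1 and 343 FPKM in sham and 128, 148 and 116 in transplant (-1.31 ± 0.20, limma adjusted p = 0.000114). Pvalb, parvalbumin of the early distal convoluted tubule, fell from 12.6, 11.8 and 10.3 FPKM to 2.86, 3.26 and 1.63 (-1.84 ± 0.22). Umod overlapped between the groups, at 612, 552 and 718 FPKM in sham and 820, 991 and 671 in transplant. Cldn4, a claudin of tight junctions, rose from 3.81, 4.22 and 2.29 FPKM to 26.1, 18.7 and 16.2 (2.26 ± 0.26), and Trpv5, the apical calcium channel, from 4.76, 7.1 and 4.53 to 31.2, 16.8 and 21.6 (1.88 ± 0.26).

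Of 16 principal cell genes 8 rose, among them Aqp2, the vasopressin-regulated water channel, against 22.3% of all genes, and 4 rose after median-of-ratios scaling. Aqp2 was at 19.8, 19.5 and 17.5 FPKM in sham and 32.3, 62.7 and 33 in transplant (1.06 ± 0.26, limma adjusted p = 0.00566). Of 19 intercalated cell genes 3 rose in FPKM, a share below the 22.3% of all genes. The count was 1 without sham replicate 1 or transplant replicate 3, while 1 rose and 3 fell after median-of-ratios scaling. Foxi1, their master transcription factor, overlapped between groups at 7.05, 8.58 and 7.84 FPKM in sham and 9.52, 6.76 and 6.7 in transplant. Of 15 podocyte and parietal genes 4 rose, close to the 22.3% of all genes. After median-of-ratios scaling 2 rose and 1 fell, and in FPKM 1 rose without sham replicate 2 and 2 without sham replicate 3, transplant replicate 1 or transplant replicate 2. Nphs1, nephrin of the slit diaphragm, was at 4.74, 5.24 and 4.88 FPKM in sham and 5.16, 4.25 and 6.48 in transplant (0.07 ± 0.19).

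Matrix genes rose almost as a whole list. Of 41 collagen and matrix genes 38 rose, with a median of 1.79, and 34 rose after median-of-ratios scaling. Col1a1 encodes a chain of fibrillar collagen I. It was at 1.31, 1.91 and 1.62 FPKM in sham and 35.6, 28.2 and 24.7 in transplant (3.53 ± 0.30, limma adjusted p = 2.79e-07). Col3a1 rose by 3.65 ± 0.27 from 3.99, 3.19 and 3.07 FPKM to 69.3, 55.1 and 41.7, and Fn1, fibronectin, by 3.49 ± 0.35. Replicate 1 was the highest and replicate 3 the lowest of the transplant libraries for these 3 genes, and no graft overlapped sham. The member that fell was Col4a3, a collagen of the glomerular basement membrane, from 34.6, 37.3 and 35.1 FPKM to 22.6, 26.5 and 22.2 (-0.57 ± 0.18, limma adjusted p = 0.0224). Without sham replicate 2, transplant replicate 1 or transplant replicate 3 that p was 0.0684, 0.0643 and 0.0643. Of 22 matrix proteases and inhibitors 14 rose and 2 fell. Timp1, the inhibitor secreted in fibrosis, went from 0, 2.32 and 1.19 FPKM to 37.6, 8.92 and 13.6 (3.20 ± 0.46), while Timp3, the inhibitor bound to matrix, fell from 382, 469 and 473 to 238, 254 and 261 (-0.81 ± 0.16).

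Of 23 pericyte, smooth muscle and myofibroblast genes 15 rose, against 22.3% of all genes. Pdgfrb, the receptor of pericytes and fibroblasts, was at 2.27, 2.84 and 3.59 FPKM in sham and 15.5, 13.5 and 7.35 in transplant (1.70 ± 0.28). Postn, periostin, rose from at most 0.158 FPKM to 3.9, 4.26 and 1.96 (1.95 ± 0.29). Acta2, the smooth muscle actin of myofibroblasts, was at 11.4, 10.7 and 14.4 FPKM in sham and 20.1, 23.1 and 20.7 in transplant. Those ranges did not overlap, but the gene did not pass the test (0.77 ± 0.29, limma adjusted p = 0.0582). Tgfb1 rose from 1.8, 1.67 and 1.54 FPKM to 10.2, 7.67 and 11.5, among 10 of 19 genes of TGF-beta, activin and BMP signalling that rose, a count of 6 after median-of-ratios scaling. Among 24 endothelial genes 11 rose, against 22.3% of all genes, and 5 did after quantile normalization. Pecam1 was at 10.5, 8.38 and 10.3 FPKM in sham and 22.8, 18.5 and 15.5 in transplant (0.88 ± 0.17). Icam1, an adhesion molecule of activated cells, rose by 1.98 ± 0.26, and Kdr, the VEGF receptor, was at 11.4, 12.8 and 11.8 FPKM in sham and 10.6, 11.2 and 12.4 in transplant (-0.07 ± 0.16).

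The macrophage list was high in every graft. Of 30 tested 26 rose, with a median of 2.12, and 23 to 26 rose with any library left out. Lyz2, the lysozyme of myeloid cells, was at 3.7, 5.97 and 6.77 FPKM in sham and 163, 139 and 58.5 in transplant (4.13 ± 0.44, limma adjusted p = 2.88e-06). C1qa, a chain of complement C1q made by tissue macrophages, went from 2.64, 4.24 and 4.29 FPKM to 35.3, 41.2 and 22.8 (2.83 ± 0.33). Adgre1, which encodes F4/80, went from 1.51, 1.32 and 1.03 FPKM to 9.68, 7.25 and 3.88 (1.73 ± 0.29). Each of these 3 genes was lowest in replicate 3 among the grafts. The list's median difference from the sham mean was 2.70 in transplant replicate 1, 2.22 in replicate 2 and 1.45 in replicate 3. Of 9 dendritic cell genes 5 rose, and 8 did without transplant replicate 3. Itgax, the integrin CD11c, was at 4.77, 2.76 and 2.9 FPKM in transplant against at most 0.315 in sham (1.90 ± 0.24).

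T and NK cell transcripts were scarce. Of 39 T and NK cell genes 9 passed the filter, and 5 of these rose. Without sham replicate 1, sham replicate 3 or transplant replicate 1 the count was 3. Cd3g, a chain of the T cell receptor complex, was at 0.0321, 0 and 0.271 FPKM in sham and 1.05, 2.06 and 4.05 in transplant (1.53 ± 0.31, limma adjusted p = 0.00149). Cd3d was at 1.24, 1.22 and 1.1 FPKM in transplant and at most 0.232 in sham. Cd8a, the co-receptor of cytotoxic T cells, was not tested. It was listed at 0.423, 0 and 0 FPKM in sham and 0.718, 0.59 and 0.653 in transplant. Summed over the 39 genes, the level was 3.59 to 4.08 FPKM in sham and 45.5, 29.5 and 21.0 in transplant. Ccl5, which other leukocytes and tubule cells also make, gave 11.4, 9.98 and 7.75 FPKM of the transplant sums, and Thy1, also a gene of fibroblasts, gave 7.78, 2.85 and 0.861. Of 27 B and plasma cell genes 7 were tested, of which Ighm, Sdc1 and Irf4 rose and Derl3 fell. Ighm, the heavy chain of IgM, was at 2.16, 1.07 and 8.01 FPKM in sham and 9.13, 7.87 and 18.7 in transplant, with overlapping groups (1.64 ± 0.41, limma adjusted p = 0.00637). Sdc1, a syndecan that epithelia also make, rose by 1.68 ± 0.34, and Derl3 fell by 1.35 ± 0.42 on the log2 scale, also with overlap. Irf4 rose by 0.81 ± 0.28 in FPKM and was not called after median-of-ratios scaling (limma adjusted p = 0.0527). Irf4 also did not pass without any 1 library other than transplant replicate 3 (limma adjusted p = 0.0752 to 0.132), nor did Derl3 without sham replicate 2, sham replicate 3, transplant replicate 2 or transplant replicate 3 (0.0537 to 0.118). The list's sum was 78.9 to 97.4 FPKM in sham and 74.0 to 108 in transplant. Cd79a, of the B cell receptor, was not tested. It was listed at 0.314 FPKM in transplant replicate 1 and at 0 in the other grafts. Igkc, the kappa light chain of antibodies, overlapped between groups at 2.67, 2.86 and 13.7 FPKM in sham and 8.19, 5.38 and 22.5 in transplant. Of 6 neutrophil genes tested, Lcn2, which tubule cells also make, and Csf3r rose. Csf3r, the receptor of granulocyte colony-stimulating factor, was at 0.00895, 0.233 and 0 FPKM in sham and 0.736, 0.503 and 1.73 in transplant, and was not called after median-of-ratios scaling (limma adjusted p = 0.0606), nor without any 1 library other than transplant replicate 2 (0.0542 to 0.165). S100a8 overlapped between the groups, at 0.303, 2.3 and 0 FPKM in sham and 1.48, 4.92 and 0 in transplant.

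Class II antigen presentation rose. Of 12 genes tested 8 rose (H2-Aa, H2-Ab1, H2-Eb1, H2-DMa, H2-DMb1, Cd74, Ciita and Ctss), and 8 or 9 did with any library left out. Genes of the class II locus are switched on by the regulator Ciita, which is recruited by factors bound to the X and Y boxes of their promoters. The Y box holds the letters ATTGG, read on either strand as CCAAT. Promoters of 4 of the genes that rose were searched. The stretches of H2-Aa and H2-Eb1 are printed because they hold CTGATTGG, so its presence in them follows from that choice. Each line gives the 200 bases before the annotated start on the gene's own strand, from RefSeq on GRCm38.p6, with ATTGG, its reverse complement and the longer form CTGATTGG in capitals.
H2-Aa (chr17:34287824-34288023, minus strand): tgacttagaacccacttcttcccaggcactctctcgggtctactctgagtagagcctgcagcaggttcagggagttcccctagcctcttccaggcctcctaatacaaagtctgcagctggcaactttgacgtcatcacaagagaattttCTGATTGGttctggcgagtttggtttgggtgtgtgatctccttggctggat
H2-Eb1 (chr17:34305667-34305866, plus strand): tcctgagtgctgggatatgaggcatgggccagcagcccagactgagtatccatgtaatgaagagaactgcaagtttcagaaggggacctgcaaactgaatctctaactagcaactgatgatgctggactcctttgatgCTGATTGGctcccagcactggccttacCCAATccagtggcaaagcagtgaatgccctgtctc

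CTGATTGG began 51 bases before the start of H2-Aa and 62 bases before that of H2-Eb1, on the gene's strand in both, and each of these matches contains an ATTGG. In H2-Eb1 a further ATTGG lay on the other strand, 35 bases before the start. In windows from 250 bases before to 50 after the start, read on both strands, CTGATTGG was found in 4.10% and ATTGG in 37.4% of the 32851 promoters in the table. The windows of Ctss and H2-DMa, which also rose, were searched in the same way and held no CTGATTGG. An ATTGG lay 198 bases before an annotated start of H2-DMa, and Ctss held none. H2-Aa was at 22.1, 25.3 and 23.6 FPKM in sham and 199, 234 and 127 in transplant (2.89 ± 0.23, limma adjusted p = 1.63e-07). H2-Eb1 went from 16.8, 17.7 and 18.2 FPKM to 158, 135 and 86.9 (2.74 ± 0.24). Cd74, the invariant chain that guides class II molecules, went from 46.5, 64 and 62.8 FPKM to 413, 450 and 262 (2.65 ± 0.20). Ciita was lower than its targets, at 0.204, 0.727 and 0.473 FPKM in sham and 4.19, 3.39 and 1.95 in transplant (1.49 ± 0.30, limma adjusted p = 0.00139). Replicate 3 was the lowest graft for all 4 genes and still above every sham library. H2 genes resemble each other in sequence, so reads may be shared between them. The summed macrophage list moved with them, from 93.1 to 115 FPKM in sham to between 443 and 778 in transplant, and its part in the class II rise was not tested.

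Class I genes and interferon targets rose together with them. Of 22 class I genes 19 rose, with a median of 1.26, and after median-of-ratios scaling 15 rose and 3 fell. B2m, the shared light chain of class I, went from 156, 155 and 137 FPKM to 470, 450 and 353 (1.49 ± 0.17, limma adjusted p = 8.13e-06), and Nlrc5, the class I regulator, from 0.218, 0.655 and 0.88 to 3.97, 2.83 and 2.9 (1.43 ± 0.28). Of 23 interferon gamma targets 20 rose, with a median of 1.20, and of 29 type I interferon targets 22 rose, with a median of 1.32. Only 15 of the type I targets rose without transplant replicate 1, as without sham replicate 2. Ifi47, an interferon-induced GTPase, was at 1.12, 1.01 and 1.16 FPKM in sham and 12.2, 11.2 and 6.82 in transplant (2.36 ± 0.25). Cxcl10, which attracts T cells, went from 1.12, 2.5 and 1.51 FPKM to 14.6, 11.9 and 19.5 (2.60 ± 0.43). Its relative Cxcl9 overlapped between groups, at 0, 0.796 and 0.464 FPKM in sham and 2.05, 1.16 and 0.579 in transplant (limma adjusted p = 0.141). Ifng itself was listed at 0.61 FPKM in transplant replicate 1 and at 0 in the other 5 libraries. Among type I targets, Ifit3 went from 2.88, 3.62 and 8.51 FPKM to 18.5, 28.7 and 20.3 (2.06 ± 0.31).

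Complement and chemokine genes rose as well. Of 18 complement genes 15 rose, with a median of 1.82. C3, the central component, was at 2.07, 2.38 and 2.27 FPKM in sham and 121, 138 and 109 in transplant (5.25 ± 0.35, limma adjusted p = 1.24e-08). All 3 grafts lay within 109 to 138 FPKM, far from sham. Cfi, the protease that inactivates C3b, rose by 2.29 ± 0.31. Fgg, the gamma chain of fibrinogen, went from 1.89, 1.75 and 4.49 FPKM to 108, 18.6 and 42.3 (3.68 ± 0.48), with a wide spread among grafts. Of 27 chemokines and cytokines 18 rose. Ccl2, the monocyte attractant, was listed at 0.18, 0 and 0 FPKM in sham and at 13.1, 16.6 and 12 in transplant (3.81 ± 0.35, limma adjusted p = 6.28e-07). Ccl5, which attracts T cells and monocytes, went from 0.369, 0.212 and 0.691 FPKM to 11.4, 9.98 and 7.75 (2.91 ± 0.42).

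Proliferation genes were raised in part. Of 38 cell cycle genes 18 rose, against 22.3% of all genes, and 10 did after quantile normalization. Mki67 was at 0.501, 0.985 and 0.601 FPKM in sham and 2.93, 3.71 and 3.77 in transplant (1.40 ± 0.30, limma adjusted p = 0.0022). Of 22 p53 target and senescence genes 12 rose and 1 fell, and 8 rose without transplant replicate 1. Cdkn1a, the cell cycle inhibitor p21, went from 2.04, 3.02 and 1.11 FPKM to 8.56, 6.88 and 3.48 (1.24 ± 0.35, limma adjusted p = 0.0128), which did not pass without sham replicate 3 or transplant replicate 1 (limma adjusted p = 0.0646 and 0.0655). Of 17 immediate early genes 9 rose, among them Junb (1.89 ± 0.28). Of 19 hypoxia targets 6 rose in FPKM, near the 22.3% of all genes, and 2 rose and 4 fell after median-of-ratios scaling. Slc2a1, the glucose transporter GLUT1, was at 6.04, 5.28 and 5.55 FPKM in sham and 13.3, 13.9 and 10.9 in transplant (1.05 ± 0.19). Ribosomal protein genes moved with the scaling. In FPKM 43 of 50 rose, with a median of 0.62, and 10 of 50 did after median-of-ratios scaling. The count was 46 after quantile normalization, 47 rescaled without the mitochondrial chromosome and 48 with the same FPKM sum in every library. In the renin-angiotensin group, Ace fell from 33.7, 31.4 and 33.1 FPKM to 11.5, 10.4 and 10.6 (-1.51 ± 0.19, limma adjusted p = 1.92e-05), and Agt, angiotensinogen, rose by 1.18 ± 0.30. Among 7 tested markers of tissue outside the cortex Krt5 and Upk1b rose and Ttr fell. Krt5, a keratin of basal epithelial cells, was at 0.161, 0.0215 and 0.0807 FPKM in sham and 1.43, 1.43 and 1.56 in transplant, and rose under both scalings (1.19 ± 0.24, limma adjusted p = 0.00131). The urothelial gene Upk1b was not called after median-of-ratios scaling, with overlapping groups, at 1.08, 0 and 0.513 FPKM in sham and 2.27, 0.825 and 2.01 in transplant.

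Most genes called at day 14 were also called in the same direction at day 7. Day 7 and day 14 have separate sham groups. Of the 3413 genes that rose at day 14, 2674 (78.3%) also rose at day 7, and of the 782 that fell, 477 (61.0%) also fell at day 7. Seen from day 7, 49.4% of its 5414 rises and 52.0% of its 918 falls were also called at day 14. The difference between the effects of day 14 and day 7 was tested itself. It was above 0 for 54 genes (0.353%) and below 0 for 40 (0.262%), of which 52 and 21 were also called after median-of-ratios scaling. With a library left out the counts were 25 to 65 and 18 to 66. The first was 25 without transplant replicate 2 and 30 without sham replicate 2. The second was 18 without sham replicate 1, 26 without sham replicate 2, and 66, 20 and 22 without transplant replicates 1, 2 and 3. The same test against day 1 called 794 genes (5.2%) above and 772 (5.05%) below 0, of which 785 and 685 were called under both scalings.

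Several proximal tubule genes were closer to sham at day 14 than at day 7, and Serpina1a passed above it. Slc22a8, the organic anion transporter OAT3, averaged 107 FPKM in sham and 18.8 in transplant at day 7. At day 14 it was at 111, 102 and 91.1 FPKM in sham and 89.6, 109 and 83.2 in transplant, with overlapping groups. The difference between days was 2.34 ± 0.23 (limma adjusted p = 2.35e-05). Fam151a averaged 55.8 and 5.75 FPKM in sham and transplant at day 7 and 47.4 and 36.8 at day 14, a difference of 2.67 ± 0.26 (limma adjusted p = 2.35e-05). Inmt, which methylates indole amines, averaged 402 and 4.29 FPKM at day 7 and 325 and 45.5 at day 14, so that its effect moved from -6.32 to -2.85 (difference 3.48 ± 0.33). Ttr, the carrier of thyroxine and retinol, moved from -3.18 to -0.89, Cyp2d12 from -5.54 to -2.82 and Ugt3a1 from -4.62 to -1.91. Those 3 were still below sham at day 14. Serpina1a, an alpha-1-antitrypsin, went from -0.84 at day 7 to 1.37 at day 14. It averaged 11.7 and 6.08 FPKM at day 7 and 10.1 and 27.4 at day 14 (difference 2.21 ± 0.48, limma adjusted p = 0.0417). That call was lost without sham replicate 2, sham replicate 3, transplant replicate 2 or transplant replicate 3 (limma adjusted p = 0.05001 to 0.103). Its relatives moved apart at day 14. Serpina1d was below sham (-1.53 ± 0.48, and -4.25 at day 7). Serpina1c was above it (0.90 ± 0.28, and -1.14 at day 7), though not called after median-of-ratios scaling. Whether reads were shared between these genes was not tested, so the level of each is uncertain.

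Kap, Ugt1a2 and Nat8f5 moved further from sham, while the rises of S100a6 and Hspb1 were smaller at day 14. Kap averaged 18893 FPKM in sham and 1128 in transplant at day 7, and its effect went from -1.56 at day 1 and -4.06 at day 7 to -5.98 at day 14 (difference from day 7 -1.92 ± 0.30, limma adjusted p = 0.00411). Ugt1a2 averaged 12.1 FPKM in transplant at day 7 and 84.4 at day 14 (difference 3.17 ± 0.48). That difference was not called with 0.1 in place of 1 added to FPKM (limma adjusted p = 0.142). Nat8f5, of the N-acetyltransferase 8 family, averaged 9.25 and 5.69 FPKM in sham and transplant at day 7. At day 14 it was at 10.3, 16 and 21 FPKM in sham and 1.76, 0 and 0 in transplant (difference -2.95 ± 0.46, limma adjusted p = 0.00402). S100a6, a calcium-binding protein of injured epithelium, rose on both days but less at day 14, by 2.96 against 5.01, and Hspb1, a small heat shock protein, by 0.94 against 3.15. The difference between days was lost for S100a6 without sham replicate 1, sham replicate 2, transplant replicate 2 or transplant replicate 3 (limma adjusted p = 0.0522 to 0.0658). For Hspb1 it was lost without sham replicate 1, sham replicate 3, transplant replicate 2 or transplant replicate 3 (0.0687 to 0.0965) and with the replicate block (0.0543). The day 14 rise of Hspb1 was not called after median-of-ratios scaling (limma adjusted p = 0.159), nor without sham replicate 2, sham replicate 3, transplant replicate 1 or transplant replicate 2 (0.0637 to 0.167).

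A few chaperones of the endoplasmic reticulum, with Fkbp5 and Alas1, had fold changes above 0 at day 7 and below 0 at day 14 under both scalings. After median-of-ratios scaling the day 7 rise was called for Hspa5 but not for Creld2, Sdf2l1, Fkbp5 or Alas1 (limma adjusted p = 0.126 to 0.573), while all 5 falls at day 14 were. Hspa5, the chaperone BiP, averaged 151 FPKM in sham and 299 in transplant at day 7. At day 14 it was at 353, 261 and 239 FPKM in sham and 145, 145 and 109 in transplant, with no overlap. The difference of effects was -2.07 ± 0.24 (limma adjusted p = 0.000294). Creld2 averaged 9.48 and 16 FPKM at day 7 and 21.4 and 7.81 at day 14 (difference -2.07 ± 0.30), and Sdf2l1 3.53 and 8.64 at day 7 and 9.61 and 3.95 at day 14 (difference -2.24 ± 0.45). The Sdf2l1 difference was not called without sham replicate 1, sham replicate 2 or transplant replicate 2 (limma adjusted p = 0.0801, 0.0560 and 0.0666), nor its day 14 fall without sham replicate 1 or transplant replicate 2 (0.0748 and 0.0785). Fkbp5, a glucocorticoid-induced co-chaperone of steroid receptors, averaged 13.6 and 28.9 FPKM at day 7 and 26.1 and 9.42 at day 14. Alas1, the rate-limiting enzyme of heme synthesis, averaged 32 and 53.8 FPKM at day 7 and 85.6 and 27.7 at day 14. For these 5 genes the sham level was higher at day 14 than at day 7, by 0.90 to 1.38 on the log2 scale, none of it past the test (limma adjusted p = 0.249 to 1), and its part in the change of sign was not tested.

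**Figure D4:**
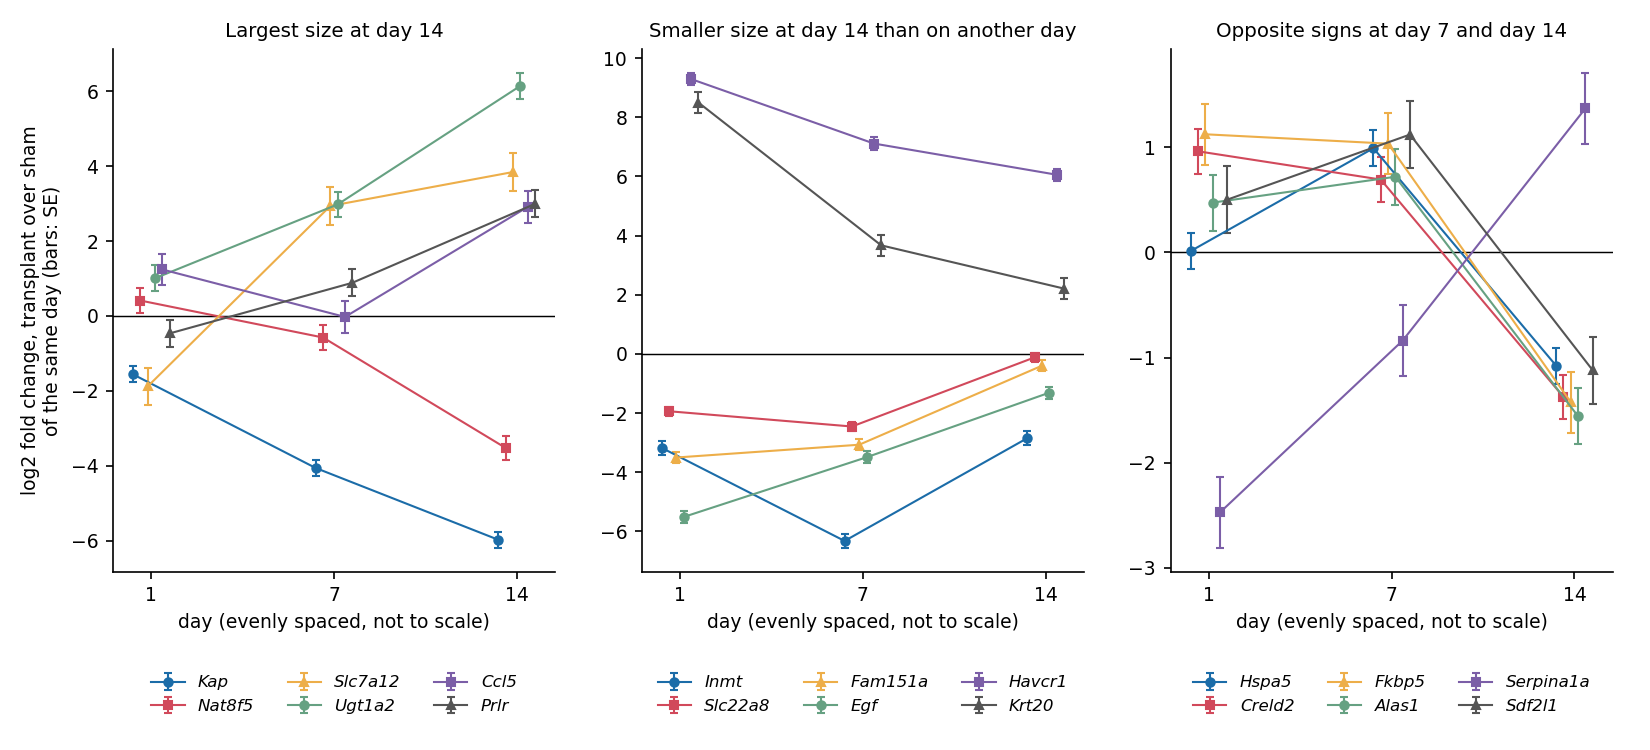
Log2 fold change of transplant over sham of the same day at day 1, 7 and 14 for 18 genes, in 3 panels (bars are SE, n = 3 per group). Kap goes from -1.56 to -4.06 and -5.98, Slc22a8 returns to -0.12 at day 14, and Hspa5 is at 0.99 at day 7 and -1.08 at day 14.

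Against day 1, the differences of single genes were larger. Krt20 averaged 489 FPKM in transplant at day 1 and 4.52 at day 14 (difference -6.29 ± 0.51, limma adjusted p = 7.99e-07). Plin2, the coat protein of lipid droplets, averaged 719 FPKM in transplant at day 1 and was at 53.5, 34.1 and 26.8 at day 14, while its sham averages were 23 and 23.7 (difference -4.23 ± 0.34). Calcb, a calcitonin gene-related peptide, S100a9 of neutrophils, the cytoskeletal protein Flnc and the AP-1 factor Fosl1 averaged 41.4, 27.8, 35.7 and 23.2 FPKM in transplant at day 1. At day 14 they averaged 0.013, 0.696, 1.01 and 0.48. In the other direction, Egf averaged 5.59 FPKM in transplant at day 1, 27.2 at day 7 and 131 at day 14, with sham averages of 302, 304 and 325 (difference from day 1 4.20 ± 0.28, limma adjusted p = 1.05e-07). Calb1, the calcium buffer of the distal tubule, averaged 8.36 FPKM in transplant at day 1 and was at 132, 177 and 239 at day 14, against 110, 118 and 125 in sham. Hao2, a peroxisomal hydroxyacid oxidase, averaged 13.8 FPKM in transplant at day 1 and 189 at day 14, and Scd1, the stearoyl-CoA desaturase, 2.8 and 52.5. Slc7a12 changed sign, from -1.88 at day 1 to 3.84 at day 14 (difference 5.72 ± 0.71).

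Some of the genes of widest spread among the 3 grafts are given here, and others of that set are left out. Il1f6, an interleukin-1 family cytokine, was at 31.2, 1.05 and 1.73 FPKM in transplant and listed at 0 in sham. Ccl8, a chemokine of macrophages, was at 9.88, 12.3 and 0 FPKM, Retnla, a marker of alternatively activated macrophages, at 14.3, 4.22 and 0, and Ear2, a ribonuclease of eosinophils and macrophages, at 14.3, 2.27 and 0. Replicate 3 was listed at 0 for all 3 of these macrophage-associated genes. B3gnt2, a glycosyltransferase, varied in both groups, at 0.329, 13.8 and 17.2 FPKM in sham and 0.663, 0.858 and 18.4 in transplant. Replicate 3 was also the lowest graft for the medians of the class II (1.18, against 2.03 and 2.20), complement (1.53, against 2.24 and 1.99) and chemokine lists (1.25, against 2.27 and 1.77). Transplant replicate 1 was the lowest graft for the median of proximal tubule metabolism, at -1.17 against -0.63 and -0.66.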

How the data were processed

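The submitters deposited 1 table with the FPKM of 54848 gene rows in 18 libraries, 3 for each of 6 groups; the FPKM values were computed by the authors. Per the submitters' processing notes, DESeq2 and the mm10 genome were used, with no role given; for the aligner and the quantification program, a name is not given in the sources used here. Gene identifiers were repaired and matched to GENCODE M21 on GRCm38 (54819 of 54848), and 17 rows with 7 repeated identifiers were left out. FPKM did not resolve into whole reads (14.1% to 20.5% of low values were whole within 0.05), so no count test was run. Genes with an FPKM of at least 1 in at least 3 of 18 libraries were kept, log2(FPKM + 1) was fitted over all 6 groups with limma 3.58.1 (R 4.3.3, robust empirical Bayes), and each day's transplant was set against its own sham. The differences between days were contrasts in the same fit. p-values were adjusted over all tested genes at a threshold of 0.05. The model was tried on simulated data with 50 changed genes per size. It recovered 14%, 68%, 98% and 100% of log2 changes of 0.5, 1, 2 and 4, and called 7 unchanged genes. The simulation used normal noise, held no shift common to all genes and changed only genes well above the floor in sham. It therefore cannot speak to the choice of scaling or to genes of low FPKM. Figures were drawn with matplotlib 3.10.9 in Python 3.11.15.

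Genes were named by 5 rules: the 15 largest changes per direction called under both FPKM and median-of-ratios scaling with separate groups and a mean of at least 5 FPKM; up to 4 called genes of smallest adjusted p in each of 41 lists; a fixed panel; the 8 largest differences per direction from day 7 and day 1; and the 8 genes of widest spread among grafts. Further list and family members, called and not called, were chosen after their values were seen. The genes, lists and tests were chosen with earlier results of these data known, and the endoplasmic reticulum list after its values were seen. Alternatives were other pseudocounts, filters and scalings, empirical Bayes that is not robust, the 6 day 14 libraries alone, a replicate block and each library left out. Replicate numbers are shared between groups, but same-numbered libraries did not deviate together. Some genes are not reported here.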

Additional observations from a re-analysis of the deposited data

Results flagged for a closer look

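The effect of transplantation differed between day 14 and day 7 by a test of the difference itself in limma. It was higher at day 14 for 54 genes and lower for 40, or 25 to 65 and 18 to 66 with a library left out. Against day 1, it was higher for 794 genes and lower for 772. Of the genes with the largest differences from day 7, the log2 difference was 3.48 for Inmt, 3.17 for Ugt1a2, 2.72 for Cyp2d12, 2.71 for Ugt3a1, 2.67 for Fam151a, 2.34 for Slc22a8, 2.29 for Ttr and 2.21 for Serpina1a. It was -2.95 for Nat8f5, -2.46 for Fkbp5, -2.28 for Alas1, -2.24 for Sdf2l1, -2.20 for Hspb1, -2.07 for Hspa5, -2.07 for Creld2 and -2.05 for S100a6.

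Against day 1 the log2 difference was 5.72 for Slc7a12, 5.14 for Ugt1a2, 4.20 for Egf, 4.12 for Calb1, 4.05 for Hao2, 3.99 for Ugt1a6a, 3.90 for Scd1 and 3.86 for Ugt1a9. It was -6.29 for Krt20, -4.62 for Calcb, -4.53 for S100a9, -4.42 for Kap, -4.23 for Plin2, -4.14 for Flnc, -3.94 for Nat8f5 and -3.82 for Fosl1. Ugt1a2 and Nat8f5 differed from both earlier days, though Ugt1a2 was not called against day 7 with a pseudocount of 0.1 (limma adjusted p = 0.142). These genes were selected as the largest differences, so their sizes are likely to be overstated.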

How the results depend on the processing

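Counts moved by over 1.5 times under these settings. With a mean FPKM of at least 5, 2049 genes rose at day 14 and 74 had a lower effect than at day 7. With median-of-ratios scaling 1746 rose, 1707 fell and 21 were lower than at day 7, and with quantile normalization 1561 rose and 1337 fell. With the same FPKM sum in every library 123 were lower than at day 7, without a filter 19 were higher and 8 lower than at day 7, and with the 6 day 14 libraries alone 2255 rose. With a library left out, 2580 to 3125 genes rose and 586 to 714 fell. The effect was higher than at day 7 for 25 to 65 genes and lower for 18 to 66, and higher than at day 1 for 623 to 888 and lower for 563 to 862. Higher effects than at day 7 numbered 30 without sham replicate 2 and 25 without transplant replicate 2. Lower effects numbered 18 without sham replicate 1, 26 without sham replicate 2, 66 without transplant replicate 1, 20 without transplant replicate 2 and 22 without transplant replicate 3. The cause was not tested. The replicate block gave 3302 rises and 747 falls, 45 and 28 differences from day 7, and 745 and 707 from day 1. Deviations of same-numbered libraries correlated at 0.003 to 0.012, so the numbers are not taken as pairs. Among the genes named in the text, the only ones tabulated, those whose sign changed had not passed the test. Under median-of-ratios scaling the log2 fold change was -0.0037 for Ddx3y, -0.15 for Itgb6 and -0.21 for Nphs1. Under quantile normalization it was -0.0086 for Calcb and -0.32 for Nphs1. Rescaled without the mitochondrial chromosome it was 0.022 for Foxi1, and with the same sum 0.11 for Foxi1, 0.089 for Kdr, 0.051 for Slc22a8 and 0.010 for Slc5a2. With a library left out it ranged from 0 to 0.028 for Calcb, -0.19 to 0.038 for Foxi1, -0.066 to 0.19 for Nphs1, -0.047 to 1.24 for S100a8, -0.066 to 0.60 for S100a9 and -0.34 to 0.12 for Slc5a2. Depth is unknown, so no counting error can be given, and low FPKM may rest on few reads.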

Other observations

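Families of detoxifying enzymes and transporters held both rises and falls at day 14, where 22.3% of all tested genes rose and 5.12% fell. After median-of-ratios scaling these shares were 11.4% and 11.2%. Of 40 cytochrome P450 genes tested, 13 fell and 6 rose, the rises being a smaller share than among all genes in FPKM. After median-of-ratios scaling 15 fell and 5 rose, and the share of rises was no longer the smaller. Cyp2a4, a steroid hydroxylase, was at 154, 148 and 179 FPKM in sham and 25.8, 31.2 and 13.3 in transplant (-2.80 ± 0.29), while Cyp1b1 went from 3.38, 3.87 and 3.14 to 19.6, 10.6 and 13.6 (1.77 ± 0.27). Of 15 UDP-glucuronosyltransferase genes 6 rose, all of the Ugt1a locus, and 6 fell, among them Ugt1a7c of the same locus (-0.53 ± 0.16). Both counts were the same after median-of-ratios scaling. Since reads of this locus can be assigned to one another, its rises may not be separate. The rise of Ugt1a9 was not called without sham replicate 1 or transplant replicate 2 (limma adjusted p = 0.0741 and 0.0634). Ugt2b38 fell from 363, 423 and 457 FPKM to 73.1, 77.5 and 113 (-2.25 ± 0.24). Of 20 Slc22a organic ion transporters 11 fell and 2 rose, with a median of -0.70, and here too the rises were a smaller share than among all genes. After median-of-ratios scaling 12 fell and 1 rose. Slc22a2, the organic cation transporter OCT2, fell from between 96.0 and 101 FPKM to at most 36.8 (-1.62 ± 0.22). Of 20 glutathione S-transferase genes 6 rose and 1 fell, or 4 and 3 after median-of-ratios scaling. Of 14 Akr1 aldo-keto reductases 5 rose and 4 fell, or 4 and 5 after that scaling. Of 10 Serpina genes 5 rose and 1 fell, or 4 and 1 after median-of-ratios scaling. Serpina10 was at 0.0189, 0 and 0.312 FPKM in sham and 14.2, 12.5 and 11.5 in transplant (3.64 ± 0.40).

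Of 20 chaperones and folding enzymes of the endoplasmic reticulum, a list chosen after its values were seen, 9 fell at day 14, and 15 did after median-of-ratios scaling. At day 7, 13 of them rose, against 2 that rose and 4 that fell after that scaling. The difference between the days was below 0 for 6 under both scalings (Hspa5, Hsp90b1, Pdia4, Hyou1, Sdf2l1 and Creld2), with a list median of -0.71. The median difference of sham day 14 from sham day 7 was 0.34 for the same list.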
